A study of Mus musculus with 20 samples.

Results

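In salivary glands of C57BL/6J mice, 40 genes for Wnt ligands, Frizzled receptors, LRP coreceptors and secreted Wnt inhibitors were followed from 4 to 16 weeks of age. They were taken by symbol (Wnt, Fzd, Sfrp and Dkk followed by their number, Lrp5, Lrp6 and Wif1) from the 18194 genes that had a probe set with 1 symbol, and comprised 19 ligands, 10 Frizzled receptors, 2 coreceptors and 9 secreted inhibitors. Each gene was represented by its probe set of highest mean signal over the 20 arrays. Groups were untreated mice of 4, 8, 12 and 16 weeks, with 5 mice per age, 1 array per mouse and lymph nodes removed from the glands. C57BL/6J served as the healthy strain of a study of a Sjögren's syndrome-prone congenic line, whose arrays were not used here. All mice were labelled male.

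Wnt proteins are secreted, lipid-modified ligands that bind a Frizzled receptor together with LRP5 or LRP6, which stabilises beta-catenin and switches on genes through TCF/LEF factors, and some ligands act without beta-catenin. Secreted frizzled-related proteins and WIF1 bind the ligands, whereas Dickkopf proteins such as DKK1 bind the LRP coreceptors. In salivary glands the pathway takes part in branching, duct formation and regeneration.

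Some properties of the arrays touch all results. On the 20 arrays Xist, the RNA of the inactive X chromosome, lay between 8.96 and 10.72 on the log2 scale, at or above the 96.3rd percentile of genes, and the Y-linked Eif2s3y lay between 2.07 and 2.97, at or below the 4.6th percentile. These levels of Xist and Eif2s3y go against the male label at every age. Of the other Y-linked genes measured, Kdm5d lay between 3.65 and 4.75 (12.4th to 31.2nd percentile) and Uty between 4.58 and 5.76 (30.9th to 59.4th percentile). Acinar markers (11 measured) and granular duct markers (6 measured), among them Prol1 and Klk1, had median percentiles of 99.1 and 97.9. The standard deviation (SD) of gene values within an array, the spread of its signal, was 1.68 ± 0.14 at 4 weeks, 1.498 ± 0.09 at 8, 1.64 ± 0.03 at 12 and 1.51 ± 0.14 at 16 weeks (mean ± SD, n = 5). At each age, 1 array lay farthest from its group in this measure: replicate 5 at 4 weeks (1.90), replicate 5 at 8 weeks (1.38), replicate 2 at 12 weeks (1.599) and replicate 1 at 16 weeks (1.74). Counts are given below with and without these 4 arrays.

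Most members gave low signals, as genes at large did (median of mean signals 5.28 for members and 5.49 for all genes). As a guide to background, 72 olfactory, vomeronasal and trace amine receptor genes were used, which a salivary gland is not known to need. Probe sets differ in affinity, so that a position against this floor is approximate and signals of different genes do not rank transcripts. Only 4 of 40 members had a mean above the 95th percentile of these sensory receptor genes (6.88), namely Fzd10 (7.74), Fzd4 (7.49), Sfrp1 (7.40) and Wnt7b (7.09), that is 10% of members against 16.3% of all genes. Each of the 4 was placed by the brightest of several probe sets, and the means of its other probe sets lay under that bound at every age. The brightest sensory receptor gene, at 8.09, lay above every member. Fzd1 (6.74) and Lrp6 (6.825), which are called below, lay under the 95th percentile. At the median of the sensory receptor genes (4.59) 28 members lay above, or 70% against 72.4% of all genes. The 12 members at or below that median were 6 ligands (Wnt2b, Wnt3, Wnt3a, Wnt8a, Wnt9a and Wnt11), Fzd2 and 5 inhibitors (Dkk1, Dkk2, Dkk4, Sfrp2 and Wif1). By kind, the median of mean signals was 5.27 for ligands, 6.07 for Frizzled receptors, 5.90 for coreceptors and 3.85 for inhibitors, against 5.49 for all genes.

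**Figure D1:**
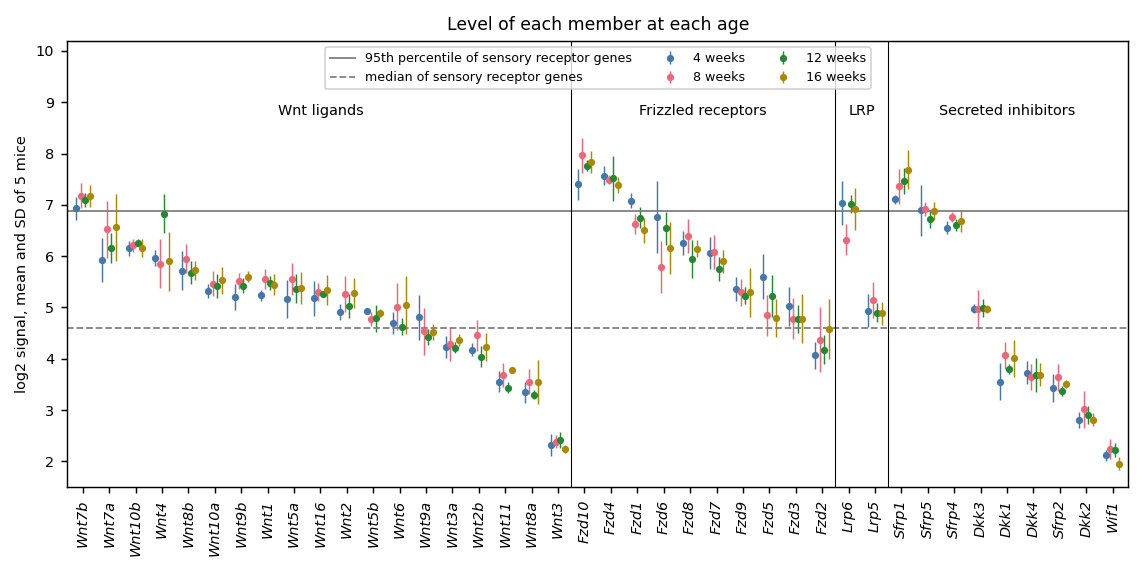
Mean log2 signal and SD of 5 mice for each of 40 members (horizontal axis, ordered by kind and by mean) at 4, 8, 12 and 16 weeks (colours). Grey lines mark the 95th percentile (6.88) and the median (4.59) of 72 sensory receptor genes, and the means over all ages of only 4 members lie above the upper line.

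Over the 4 ages no member passed the limma F test at an adjusted p under 0.05, against 2.6% of all genes, while 10 members had an unadjusted p under 0.05, against 25.9% of genes. The lowest adjusted p was that of Wnt4 (0.0639). From 4 to 8 weeks, 3 of 40 members passed (7.5%, against 7.39% of all genes): Fzd10 rose (all genes, 3.26% higher) and Fzd1 and Lrp6 fell (all genes, 4.13% lower). The share called was thus close to that of genes at large. At an unadjusted p under 0.05 there were 8 members, 4 higher and 4 lower (all genes, 32.4%). From 8 to 12 weeks none passed (all genes, 0.0055%) with 5 at an unadjusted p under 0.05 (all genes, 18.8%), and from 12 to 16 weeks none passed (all genes, 0.192%) with 3 unadjusted (all genes, 14.2%). Between ages that were not neighbours, 16 against 4 weeks gave 1 call, a fall of Fzd1 (all genes, 3.63% called, 0.506% higher and 3.12% lower), with 8 members unadjusted (all genes, 24.2%). Neither 12 against 4 weeks (all genes, 0.0934%) nor 16 against 8 weeks (all genes, 0%) gave a call by limma, with 3 and 2 members at an unadjusted p under 0.05 (all genes, 9.03% and 5.81%).

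These counts rested on few arrays. From 4 to 8 weeks no member passed without replicate 4 or 5 at 4 weeks or without replicate 2, 3 or 5 at 8 weeks, and 7 passed without replicate 4 at 8 weeks, when 2694 of all genes did. Without replicate 1 at 16 weeks, 4 members passed the F test (Fzd1, Fzd5, Lrp6 and Wnt4), when 2611 of all genes did, and Wnt4 passed it without replicate 4 at 8 weeks (1082 of all genes). When the 4 arrays of most extreme spread were left out together, 0 members passed from 4 to 8 weeks (23 of all genes) and 2, Lrp6 and Wnt4, passed the F test (1387 of all genes). In that fit Wnt4 alone passed from 12 to 16 weeks (2112 of all genes) and Fzd1 alone passed between 4 and 16 weeks (1546 of all genes).

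**Figure D2:**
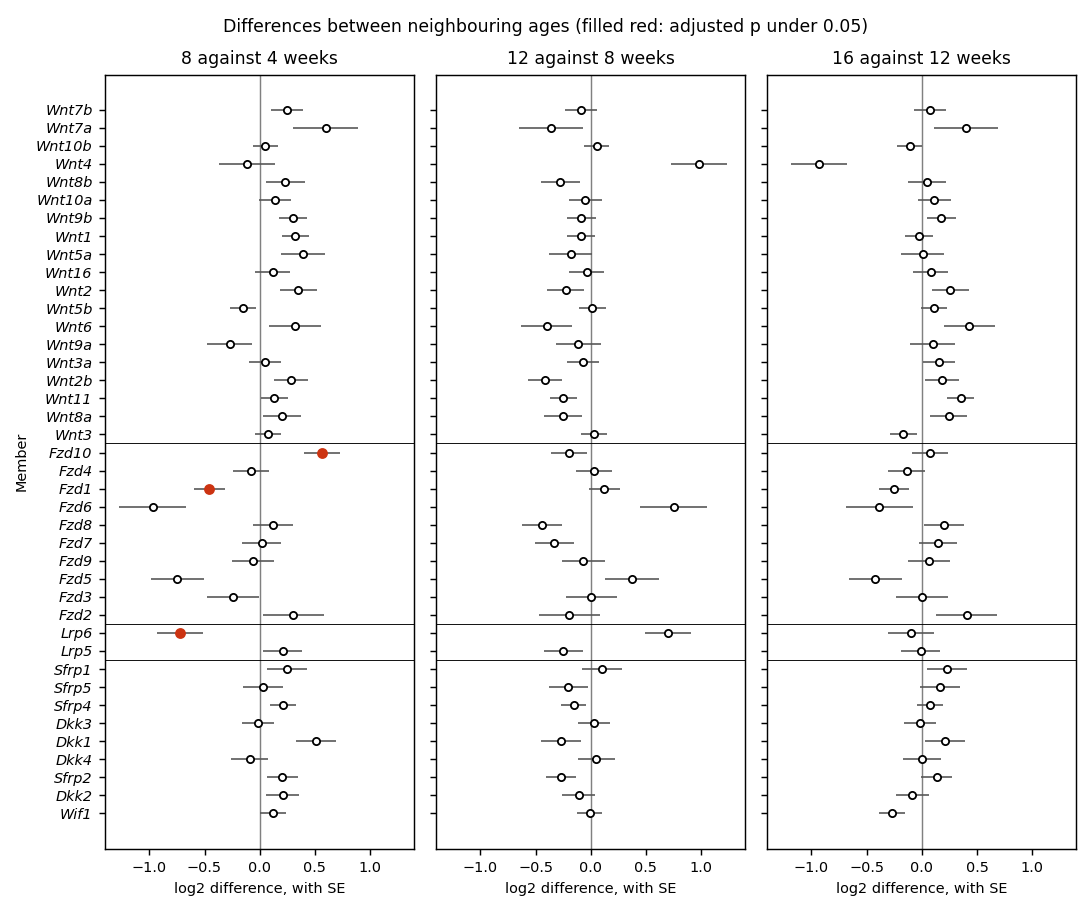
Log2 difference of each of 40 members (rows, ordered by kind and by mean) between neighbouring ages, with the standard error from limma. Filled red points passed at an adjusted p under 0.05, which only Fzd10, Fzd1 and Lrp6 did, all from 4 to 8 weeks, and the largest differences of the later periods are those of Wnt4.

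Among the ligands, the largest differences were those of Wnt4, which acts in kidney, gonad and mammary gland development. Its log2 signals were 5.78, 5.85, 5.94, 6.10 and 6.17 at 4 weeks, 5.30, 5.40, 6.00, 6.22 and 6.35 at 8 weeks, 6.34, 6.63, 6.75, 7.17 and 7.25 at 12 weeks, and 5.29, 5.65, 5.82, 5.89 and 6.85 at 16 weeks. The difference of 0.86 from 4 to 12 weeks did not pass (adjusted p = 0.349 from limma). The lowest mouse of 12 weeks just overlapped 8 weeks, and 1 mouse of 16 weeks lay within the range of 12 weeks. The difference from 8 to 12 weeks was 0.98 (standard error 0.25, adjusted p = 0.118 from limma) and that from 12 to 16 weeks was -0.93 (standard error 0.25, adjusted p = 0.148 from limma), so that neither passed. Exact permutation tests of these differences, two-sided over all labelings of 5 against 5 mice, gave unadjusted p = 0.0159 and p = 0.0317. Wnt4 was described for its low F test p on the same arrays, so that these p-values are not independent support. Without the high mouse, replicate 1 at 16 weeks, Wnt4 passed from 12 to 16 weeks with a fall of 1.17 (adjusted p = 0.0114 from limma) and passed the F test (adjusted p = 0.00798). Leaving out the mouse of highest Wnt4 at 16 weeks enlarges this fall by construction. In that fit many more of all genes passed the F test as well, so that it is no separate support. Its other probe set had means of 5.73, 5.53, 5.96 and 5.49 at 4, 8, 12 and 16 weeks, with its highest mean at 12 weeks as well. The ranges of that probe set at 4 weeks (5.54 to 6.04) and 12 weeks (5.73 to 6.25) overlapped.

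Wnt7b, a ligand of lung and kidney epithelium and the 1 ligand above the floor, was 6.65, 6.82, 6.93, 6.98 and 7.27 at 4 weeks and 6.92, 7.01, 7.09, 7.43 and 7.46 at 8 weeks. The groups overlapped, the difference was 0.25 (adjusted p = 0.227 from limma), and it ranged from 6.90 to 7.22 at 12 weeks and from 6.90 to 7.4951 at 16 weeks. Wnt9b, a ligand of kidney ducts, was 4.81 to 5.53 at 4 weeks (median 5.24) and 5.49 to 5.72 at 16 weeks (median 5.61). The highest mouse of 4 weeks overlapped the older mice, and the difference of 0.39 did not pass (adjusted p = 0.0799 from limma). Wnt11, which acts mostly without beta-catenin, was 3.32, 3.36, 3.42, 3.53 and 3.55 at 12 weeks and 3.75, 3.75, 3.78, 3.82 and 3.84 at 16 weeks. It was the only member whose values did not overlap between these ages (all genes, 2.65%), yet its difference of 0.35 did not pass (adjusted p = 0.227 from limma) and all its values lay below the median of the sensory receptor genes. Wnt2b, a ligand of the beta-catenin branch, was 4.02 to 4.82 at 8 weeks (median 4.55) and 3.84 to 4.27 at 12 weeks (median 3.95), with overlap and a difference of -0.41 (adjusted p = 0.186 from limma).

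The other 14 ligands did not pass in any comparison. Between neighbouring ages their log2 differences ran from -0.40 (Wnt6, 8 to 12 weeks) to 0.60 (Wnt7a, 4 to 8 weeks), and Wnt1, with 0.32 from 4 to 8 weeks, had the lowest adjusted p among them in that period (0.0914 from limma). In the GRCm38.p6 annotation of RefSeq, 4 pairs of ligand genes lay next to each other with no protein-coding gene between them. From 4 to 8 weeks the members of a pair differed by 0.32 and 0.14 (Wnt6 and Wnt10a), 0.05 and -0.27 (Wnt3a and Wnt9a), 0.30 and 0.07 (Wnt9b and Wnt3) and 0.05 and 0.32 (Wnt10b and Wnt1) on the log2 scale, and none of these passed.

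By sign, from 4 to 8 weeks 16 of 19 differences were positive (median 0.20), from 8 to 12 weeks 4 of 19 were (median -0.09) and from 12 to 16 weeks 15 of 19 were (median 0.11). In 13 of 19 ligands (68.4%) the signs ran positive, negative, positive, against 41.7% of the genes under the median of mean signal and 33.3% of all genes. The exceptions were Wnt1, Wnt3, Wnt4, Wnt5b, Wnt9a and Wnt10b, and neighbouring comparisons share the mice of the age between them. No ligand passed in any of these comparisons. Of the 9097 genes under the median of mean signal, 68.5% were positive from 4 to 8 weeks, 28.5% from 8 to 12 and 57.9% from 12 to 16 weeks, against 54.8%, 44.1% and 46.8% of all genes. After cyclic loess of the arrays, which brought the low genes to 50.9%, 46.8% and 52.7%, the ligands were positive in 13, 5 and 15 of 19. When the spread entered the fit as a covariate, the low genes were at 62.5%, 35.9% and 49.4% and the ligands at 14, 8 and 13 of 19 (medians 0.13, -0.04 and 0.06). Without the 4 arrays of most extreme spread the low genes were at 64%, 32.8% and 60.2% and the ligands at 16, 3 and 15 of 19.

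Of the Frizzled receptors, seven-pass membrane proteins that bind Wnt through a cysteine-rich domain, Fzd1 and Fzd10 passed from 4 to 8 weeks in opposite directions. Their promoter sequences from RefSeq are shown as called members that had a window. Wnt11 is shown as the described ligand that had a window with the TCF/LEF letters CTTTGAT. The other window of Wnt11 lacked these letters and is not shown. The table (GRCm38.p6) covered 26 of the 40 members and held no window for Lrp6, which was also called. Each line gives the 250 bases before a transcript start, 5′ to 3′, with a match to those letters on either strand in capitals.
Fzd1, chr5:4758217-4758466, minus strand: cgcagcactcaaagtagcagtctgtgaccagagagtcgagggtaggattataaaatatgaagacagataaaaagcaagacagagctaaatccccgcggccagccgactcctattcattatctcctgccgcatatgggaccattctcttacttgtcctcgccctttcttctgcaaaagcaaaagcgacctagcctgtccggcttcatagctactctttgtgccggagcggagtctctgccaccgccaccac
Fzd10, chr5:128600856-128601105, plus strand: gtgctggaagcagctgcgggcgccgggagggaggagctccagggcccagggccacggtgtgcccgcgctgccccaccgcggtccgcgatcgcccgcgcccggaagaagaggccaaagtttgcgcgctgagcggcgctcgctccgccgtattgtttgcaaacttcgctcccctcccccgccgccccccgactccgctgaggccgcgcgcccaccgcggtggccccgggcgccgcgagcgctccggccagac
Wnt11, chr7:98834862-98835111, plus strand: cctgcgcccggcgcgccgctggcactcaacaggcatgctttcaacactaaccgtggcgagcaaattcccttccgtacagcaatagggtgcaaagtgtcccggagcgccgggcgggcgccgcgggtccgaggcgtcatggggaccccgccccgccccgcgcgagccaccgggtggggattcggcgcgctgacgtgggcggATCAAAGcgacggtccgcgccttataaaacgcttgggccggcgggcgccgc
The Fzd1 stretch had 51.2% G and C and 12 CG dinucleotides, whereas that of Fzd10 had 76.4% and 37, and neither held the letters. In windows of 300 bases, to 50 bases after the start, the letters were present in 2 of 29 windows of members (6.9%), against 3.73% of 32851 windows in all. The matches lay in a window each of Wnt5b and Wnt11, whose other windows lacked the letters. The median content of G and C was 66.7% for members and 52.7% for all windows, and the median number of CG dinucleotides was 26 and 7. These are counts of letters, not of bound sites.

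Fzd1 had log2 signals of 6.93, 6.94, 7.13, 7.20 and 7.23 at 4 weeks, 6.35, 6.55, 6.63, 6.74 and 6.88 at 8 weeks, 6.56, 6.62, 6.63, 6.97 and 6.98 at 12 weeks, and 6.19, 6.32, 6.60, 6.70 and 6.71 at 16 weeks. Every mouse of 8 and of 16 weeks lay below every mouse of 4 weeks, and 12 weeks overlapped all other ages. At 8 weeks Fzd1 had fallen by 0.46 against 4 weeks (limma, standard error 0.14, adjusted p = 0.0484), and at 16 weeks it had fallen by 0.58 against 4 weeks (limma, standard error 0.14, adjusted p = 0.0283). Members called by limma, Fzd1 among them, were described for calls on the same arrays, so that their exact p-values are not independent support. For Fzd1 the exact permutation tests of both differences gave an unadjusted p = 0.00794. That is the smallest that 5 against 5 mice allow, and groups without overlap always reach it. The call from 4 to 8 weeks held in 2 of 10 fits that each left out 1 of these mice, with adjusted p between 0.0384 and 0.144 from limma, and that from 4 to 16 weeks held in 5 of 10, with adjusted p between 0.00886 and 0.105. The former was kept without replicate 2 at 4 weeks or 4 at 8 weeks, and the latter was lost without replicate 4 or 5 at 4 weeks or 2, 4 or 5 at 16 weeks. Among members, values that did not overlap were found in 2 of 40 from 4 to 8 weeks (Fzd1 and Fzd10, all genes 5.75%), in 1 from 8 to 12 weeks (Lrp6, all genes 5.34%) and in 3 between 4 and 16 weeks (Fzd1, Fzd5 and Sfrp1, all genes 3.07%).

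Fzd10 had log2 signals of 6.86, 7.44, 7.51, 7.57 and 7.62 at 4 weeks and 7.62, 7.78, 7.80, 8.17 and 8.44 at 8 weeks. The groups met at their edges without overlap, and replicate 5 at 4 weeks stood apart at 6.86. Values at 12 weeks (7.65 to 7.94) and 16 weeks (7.57 to 8.14) stayed near those of 8 weeks. From 4 to 8 weeks Fzd10 rose by 0.56 (limma, standard error 0.16, adjusted p = 0.0446; exact permutation p = 0.00794). Against 4 weeks, the differences of 0.36 at 12 weeks and 0.43 at 16 weeks did not pass (adjusted p = 0.528 and 0.121 from limma). The call from 4 to 8 weeks held in 5 of 10 fits that left out 1 mouse. Without the 4 arrays of most extreme spread that difference was 0.38 (adjusted p = 0.277 from limma).

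Fzd5, a receptor of gut and eye development, was 5.27, 5.31, 5.53, 5.53 and 6.36 at 4 weeks, 4.35, 4.63, 4.75, 5.22 and 5.29 at 8 weeks and 4.44, 4.46, 4.74, 5.10 and 5.25 at 16 weeks. The mice of 4 and 16 weeks did not overlap, but the differences of -0.75 from 4 to 8 weeks and -0.80 from 4 to 16 weeks did not pass (adjusted p = 0.0569 and 0.0651 from limma). Fzd6, which acts in planar cell polarity, was 6.07, 6.26, 6.63, 7.02 and 7.83 at 4 weeks, 5.05, 5.57, 5.85, 6.09 and 6.40 at 8 weeks and 6.23, 6.23, 6.51, 6.78 and 6.96 at 12 weeks. Its ages overlapped, and the differences of -0.97 and 0.75 did not pass (adjusted p = 0.0538 and 0.211 from limma). The direction hung on the probe set. From 4 to 8 weeks the one used went from a mean of 6.76 to 5.79. The other probe sets of Fzd6 went the other way, from 6.13 to 6.56 and from 4.74 to 5.01. Fzd4, which also serves as the receptor of norrin in blood vessels, lay between 7.34 and 7.75 at 4 weeks, 7.39 and 7.58 at 8 weeks, 7.17 and 8.17 at 12 weeks, and 7.19 and 7.51 at 16 weeks, above the floor on all arrays. Its F test gave an adjusted p of 0.788 from limma. The other 5 Frizzled genes (Fzd2, Fzd3, Fzd7, Fzd8 and Fzd9) did not pass in any comparison, with differences between neighbouring ages from -0.44 (Fzd8, 8 to 12 weeks) to 0.41 (Fzd2, 12 to 16 weeks).

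Lrp6, an LRP coreceptor of the Frizzled receptors, had log2 signals of 6.53, 6.71, 7.11, 7.25 and 7.59 at 4 weeks, 5.94, 6.07, 6.42, 6.53 and 6.63 at 8 weeks, 6.79, 6.89, 7.07, 7.13 and 7.21 at 12 weeks, and 6.58, 6.74, 6.82, 6.84 and 7.63 at 16 weeks. The mice of 8 weeks were the lowest, with a slight overlap with 4 and 16 weeks and none with 12 weeks. At 8 weeks Lrp6 had fallen by 0.72 against 4 weeks (limma, standard error 0.21, adjusted p = 0.0431; exact permutation p = 0.0238). This call held in 4 of 10 fits that left out 1 mouse, those without replicate 1 or 2 at 4 weeks or 1 or 4 at 8 weeks. From 8 to 12 weeks the difference of 0.70 did not pass (adjusted p = 0.143 from limma, unadjusted exact permutation p = 0.00794). Over all arrays the means of Lrp6 and of Lrp5 lay under the 95th percentile of the sensory receptor genes. Lrp5 had means of 4.94, 5.15, 4.90 and 4.89 at 4, 8, 12 and 16 weeks, and passed in no comparison.

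**Figure D3:**
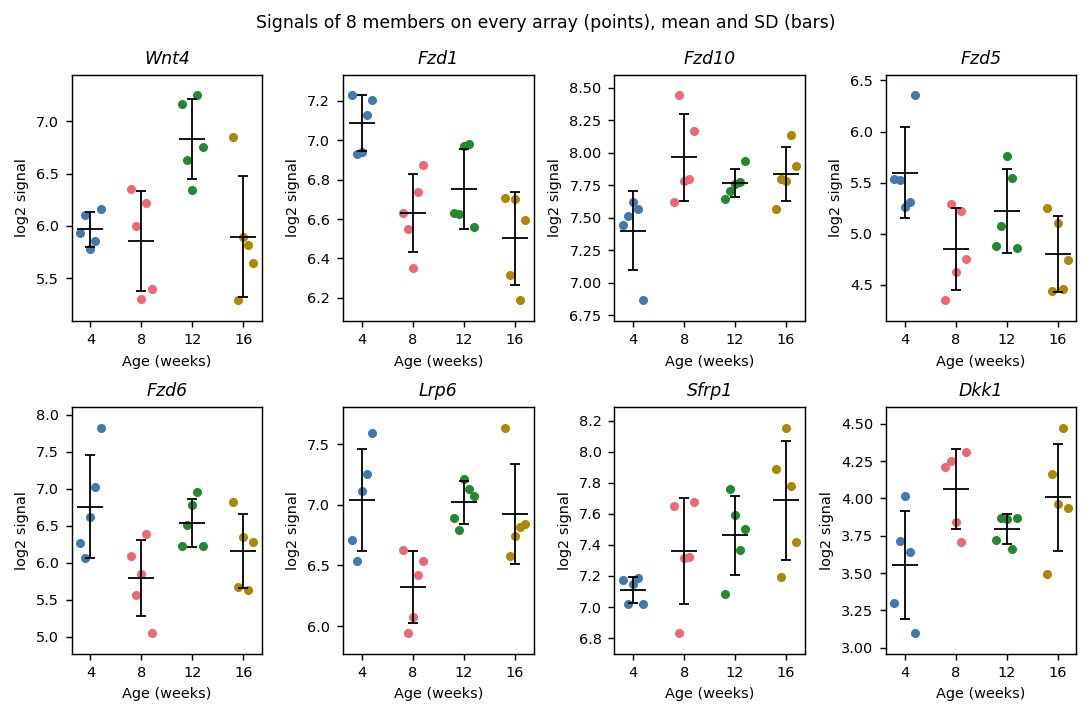
Log2 signal on every array (points, 5 per age) of Wnt4, Fzd1, Fzd10, Fzd5, Fzd6, Lrp6, Sfrp1 and Dkk1 at 4, 8, 12 and 16 weeks, with mean and SD (bars) and a separate vertical scale in each panel. Fzd1 at 8 weeks lies wholly below 4 weeks, Fzd10 lies above it, and Wnt4 is highest at 12 weeks.

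Of the secreted inhibitors, none passed in any comparison. Sfrp1, which binds Wnt proteins outside the cell, was 7.02, 7.02, 7.15, 7.17 and 7.19 at 4 weeks, 6.83, 7.32, 7.32, 7.65 and 7.68 at 8 weeks, 7.08, 7.37, 7.50, 7.60 and 7.76 at 12 weeks, and 7.19, 7.42, 7.78, 7.89 and 8.15 at 16 weeks. Its means were 7.11, 7.36, 7.46 and 7.69, and the mice of 16 weeks just cleared those of 4 weeks. That difference of 0.58 did not pass (standard error 0.18, adjusted p = 0.0722 from limma, unadjusted exact permutation p = 0.00794), but it passed after median centring (0.59, adjusted p = 0.0498), cyclic loess (0.95, adjusted p = 0.0133) and array weights (0.61, adjusted p = 0.0453). With the mean of its 5 probe sets the difference was 0.17 (adjusted p = 0.376 from limma), and the 4 dimmer probe sets alone differed by 0.15, -0.13, 0.15 and 0.10 (adjusted p between 0.581 and 0.851 from limma). Dkk1, which blocks the LRP coreceptors, was 3.10, 3.30, 3.64, 3.71 and 4.02 at 4 weeks and 3.71, 3.85, 4.21, 4.25 and 4.31 at 8 weeks. These low signals overlapped, and the difference of 0.51 did not pass (adjusted p = 0.0741 from limma), although it did with the mean of its probe sets (0.46, adjusted p = 0.0431). Wif1, which binds the ligands, lay between 1.82 and 2.49 on all arrays, far under the median of the sensory receptor genes, and its lowest adjusted p between neighbouring ages was 0.303 (12 to 16 weeks, limma). The other 6 inhibitors (Sfrp2, Sfrp4, Sfrp5, Dkk2, Dkk3 and Dkk4) had differences between neighbouring ages from -0.27 (Sfrp2, 8 to 12 weeks) to 0.21 (Dkk2, 4 to 8 weeks).

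Of the 40 members, 23 had several probe sets, and in 16 of these the probe sets differed in sign from 4 to 8 weeks. All calls of members came from the brightest probe set and were not shared by the other. Fzd1 was lower at 8 weeks by its bright probe set (difference -0.46) and higher by its dim one (0.31, adjusted p = 0.157 from limma). The dim one had means under the median of the sensory receptor genes. The bright one, with a mean of 6.74 over all arrays, itself lay under their 95th percentile. For Fzd10 the second probe set differed by -0.28 (adjusted p = 0.623 from limma), and for Lrp6 by 0.02 (adjusted p = 0.945 from limma). When each of 34958 probe sets was tested on its own, 4 of the 77 probe sets of members passed from 4 to 8 weeks (all probe sets, 6.44%) and 1 between 4 and 16 weeks (all probe sets, 3.5%). The 4 were those of Fzd10 and Lrp6 described above and dimmer probe sets of Fzd5 and Fzd7. The dimmer probe set of Fzd5 rose by 0.49 (adjusted p = 0.0296 from limma), opposite to the brighter one, and that of Fzd7 fell by 0.87 (adjusted p = 0.0268 from limma), where the brighter one differed by 0.02. Fzd1 fell between 4 and 16 weeks in this fit as well (adjusted p = 0.0297 from limma). When the probe sets of a gene were averaged, Fzd1 differed by -0.07, Fzd10 by 0.14 and Lrp6 by -0.35 from 4 to 8 weeks, and none of them passed. Whether probe sets of a gene read different transcripts was not tested.

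**Figure D4:**
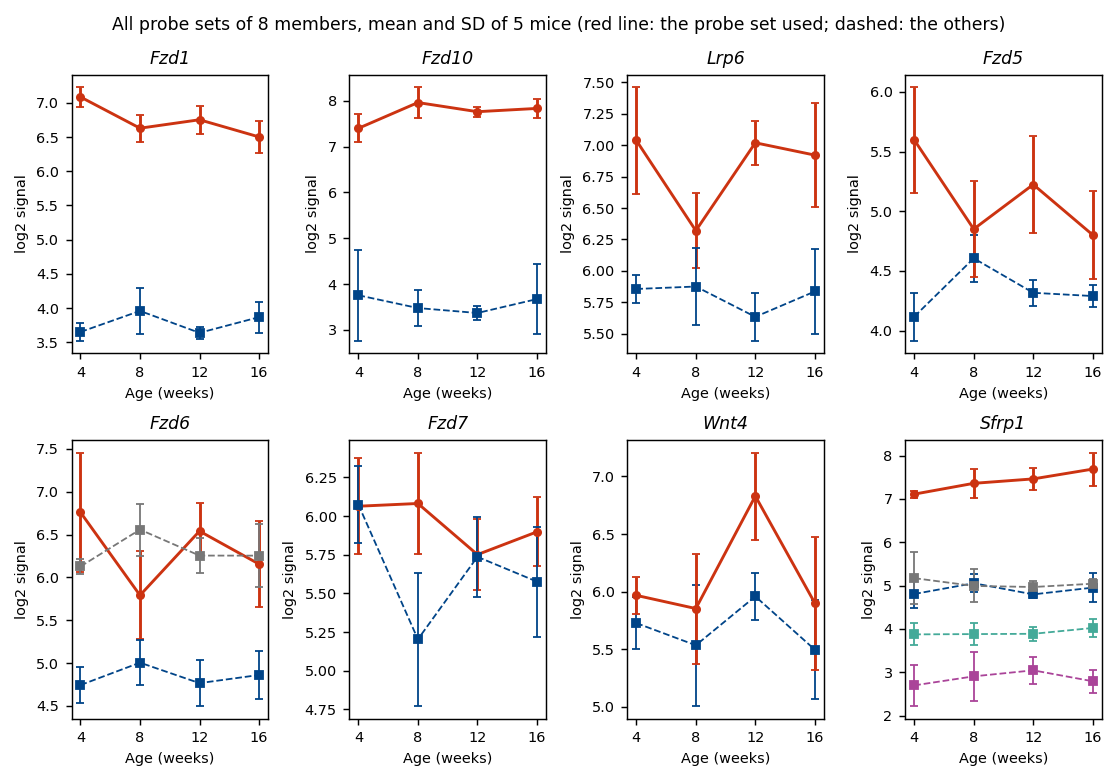
Mean log2 signal and SD of 5 mice for every probe set of Fzd1, Fzd10, Lrp6, Fzd5, Fzd6, Fzd7, Wnt4 and Sfrp1 at 4, 8, 12 and 16 weeks, with a separate vertical scale in each panel. The red line is the probe set that stands for the gene, and from 4 to 8 weeks the others (dashed) run against it in Fzd1, Fzd10, Fzd5 and Fzd6, whereas both probe sets of Wnt4 are highest at 12 weeks.

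Markers of 12 cell types were compared between neighbouring ages as the mean of each list, and no list passed after adjustment over 39 tests, which also covered the spread of signal (lowest adjusted p = 0.0774, exact permutation tests). From 4 to 8 weeks the mean of 8 fibroblast markers went from 7.30 ± 0.19 (7.08 to 7.51) to 6.42 ± 0.26 (6.12 to 6.79), with exact permutation p = 0.00794 and an adjusted p of 0.0774, and Col1a2, Col3a1 and Lum among them fell. The mean of 6 granular duct markers was 8.09 ± 0.20 (7.80 to 8.35) at 4 weeks, 9.01 ± 0.80 (7.66 to 9.70) at 8 weeks, 10.39 ± 0.57 (9.44 to 10.80) at 12 weeks and 9.24 ± 0.62 (8.47 to 9.999) at 16 weeks, highest at the age at which Wnt4 was. Its 3 differences between neighbouring ages had exact permutation p = 0.0476, 0.0238 and 0.0238 (adjusted p = 0.186, 0.133 and 0.133). Of these markers, 4 kallikreins (Klk1b1, Klk1b5, Klk1b16 and Klk1b21) rose from 4 to 8 weeks. Other lists were highest at 12 weeks too. The means of duct markers were 7.10, 6.82, 7.24 and 6.79 at 4, 8, 12 and 16 weeks. Those of Schwann cell and nerve markers were 7.06, 6.97, 7.08 and 6.95. The mean of 11 acinar markers was 10.09 ± 1.14 at 4 weeks and 8.67 ± 1.06 at 8 weeks, a difference of -1.42 that did not pass (exact permutation p = 0.0873, adjusted p = 0.227), and Lpo among them fell. The mean of 4 T cell markers was 5.59 ± 0.19 at 4 weeks, 5.90 ± 0.10 at 8 weeks and lower by 0.22 at 12 weeks (exact permutation p = 0.0159 and 0.00794, adjusted p = 0.124 and 0.0774), and Cd3e among them rose from 4 to 8 weeks. Skeletal muscle markers differed by -0.15 from 8 to 12 weeks (exact permutation p = 0.00794, adjusted p = 0.0774). From 4 to 8 weeks Myh11 of the myoepithelial list and Cd68 of the macrophage list fell as well. In that period 6 of 7 myoepithelial and 2 of 4 macrophage markers had negative differences. No marker of these lists was at 0, which log2 signals do not reach here. In bulk tissue, fewer cells of a type and less RNA per cell cannot be told apart, and the part of these cell types in the results for Fzd1, Lrp6 and Wnt4 was not tested.

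Other genes of the pathway were taken from 7 lists with 110 genes, of which 107 were measured with 1 symbol. They covered secretion, coreceptors, the R-spondin axis, other secreted modulators, beta-catenin signalling, targets, and planar polarity and calcium. In the F test 3 of 107 passed (2.8%, against 2.6% of all genes), namely Lgr4, Znrf3 and Ccnd1, and 2 passed from 4 to 8 weeks (1.87%, against 7.39%), namely Lgr4 and Fst, both lower. None passed from 8 to 12 (all genes, 0.0055%) or from 12 to 16 weeks (all genes, 0.192%), with 23 and 18 at an unadjusted p under 0.05 (all genes, 18.8% and 14.2%). Between 4 and 16 weeks 4 passed (3.74%, against 3.63%), and all were lower. By list, the F test (all genes, 2.6%) called 2 of 9 genes of the R-spondin axis (Lgr4 and Znrf3) and 1 of 17 targets (Ccnd1). From 4 to 8 weeks (all genes, 7.39%) it was 1 of 9 (Lgr4) and 1 of 17 (Fst). Between 4 and 16 weeks (all genes, 3.63%) it was 2 of 9 (Lgr4 and Znrf3), 1 of 17 (Tnfrsf19) and 1 of 43 beta-catenin pathway genes (Tle1).

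Lgr4, a receptor of R-spondins, which enhance Wnt signals, was 6.13, 6.31, 6.73, 6.87 and 6.91 at 4 weeks, 5.48, 5.93, 6.12, 6.13 and 6.24 at 8 weeks, 6.17, 6.18, 6.23, 6.44 and 6.70 at 12 weeks, and 5.50, 5.53, 5.72, 6.04 and 6.06 at 16 weeks. The mice of 16 weeks lay below all mice of 4 and 12 weeks. Against 4 weeks, Lgr4 fell by 0.61 at 8 weeks and fell by 0.82 at 16 weeks (limma, adjusted p = 0.0457 and 0.0209), but with the mean of its probe sets the differences were -0.13 and -0.26 and did not pass. Znrf3, a ubiquitin ligase that removes Frizzled receptors from the cell surface, had means of 6.40 ± 0.15, 5.96 ± 0.24, 6.26 ± 0.24 and 5.69 ± 0.24 at 4, 8, 12 and 16 weeks (SD, n = 5). Between 4 weeks (range 6.27 to 6.61) and 16 weeks (range 5.41 to 5.98) it fell by 0.71 with no overlap (limma, adjusted p = 0.016). At every age the means of Lgr4 and Znrf3 lay under the 95th percentile of the sensory receptor genes (6.88). Of 20 F tests that each left out 1 array, Lgr4 passed in 4, Znrf3 in 10 and Ccnd1 in 7.

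Ccnd1, a cyclin of the G1 phase and a target of the pathway, was 8.00, 8.18, 8.49, 8.68 and 8.93 at 4 weeks, 7.45, 7.81, 7.99, 7.99 and 8.10 at 8 weeks, 8.31, 8.64, 8.79, 8.99 and 9.05 at 12 weeks, and 7.09, 7.22, 7.44, 8.19 and 8.45 at 16 weeks. All mice of 12 weeks lay above all mice of 8 weeks. Ccnd1 passed the F test (adjusted p = 0.0398 from limma), although no difference between neighbouring ages did (0.89 from 8 to 12 weeks and -1.08 from 12 to 16 weeks, adjusted p = 0.129 and 0.0721 from limma). Fst, which encodes the activin-binding follistatin, ranged from 5.88 to 6.15 at 4 weeks and from 5.33 to 5.82 at 8 weeks, where it had fallen by 0.52 (limma, adjusted p = 0.0389). Of the genes that passed only between 4 and 16 weeks and are named here after their values were seen, the corepressor Tle1 fell by 0.67 (adjusted p = 0.0444 from limma) and Tnfrsf19, a receptor known as a Wnt target, fell by 1.05 (adjusted p = 0.0423 from limma). Tnfrsf19 varied among mice of 4 weeks, from 4.57 to 6.76, and overlapped the range of 4.15 to 4.79 at 16 weeks. At every age the means of Fst and Tnfrsf19 lay under the 95th percentile of the sensory receptor genes (6.88), whereas those of Ccnd1 lay above it. The mean of Tnfrsf19 at 16 weeks (4.49) lay under their median (4.59) as well. That of Tle1 lay under the 95th percentile only at 16 weeks (6.77). The calls depended on few arrays here too: the count between 4 and 16 weeks ran from 0 (without replicate 5 at 4 weeks, or 2 or 4 at 16 weeks) to 17 (without replicate 1 at 16 weeks), and that from 4 to 8 weeks from 0 (without replicate 4 or 5 at 4 weeks, or 3 or 5 at 8 weeks) to 10 (without replicate 4 at 8 weeks).

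**Figure D5:**
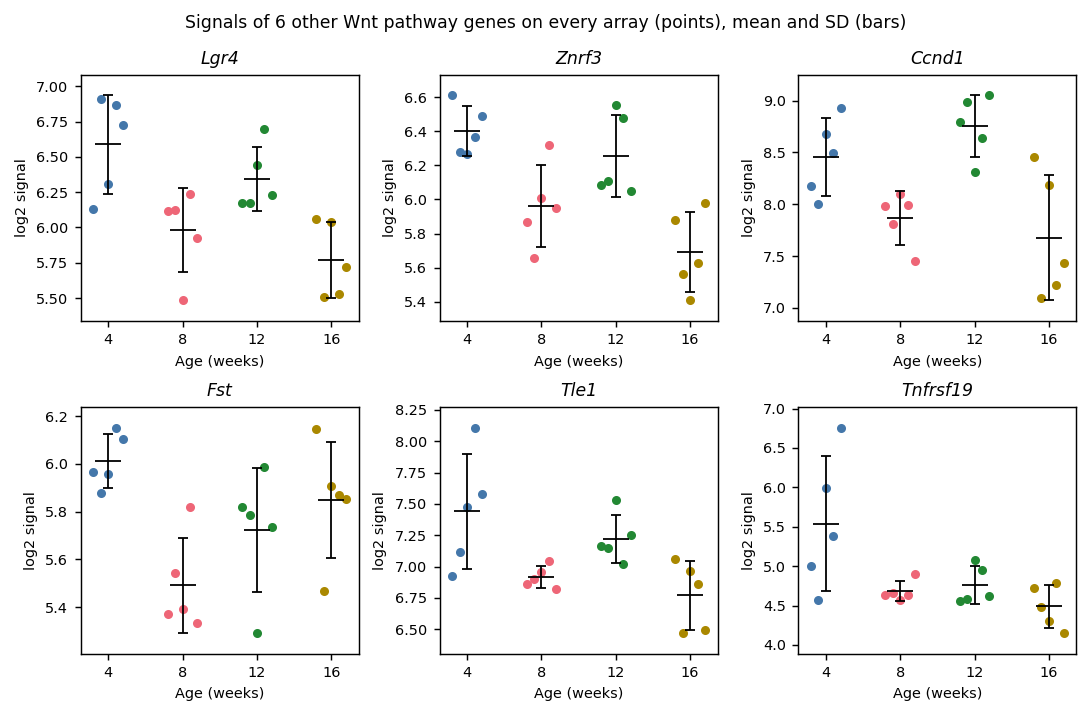
Log2 signal on every array (points, 5 per age) of Lgr4, Znrf3, Ccnd1, Fst, Tle1 and Tnfrsf19 at 4, 8, 12 and 16 weeks, with mean and SD (bars) and a separate vertical scale in each panel. Lgr4 and Znrf3 are lowest at 16 weeks, and Ccnd1 is highest at 12 weeks, with means of 8.46, 7.87, 8.76 and 7.68.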

How the data were processed

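For 20 Affymetrix arrays (1 per mouse) the authors deposited a log2 signal for each of 45101 probe sets, made by quantile normalization and background correction in RMA. No further scaling was applied, and 0 columns belonged to other samples. Symbols came from the platform annotation (34958 probe sets with 1 symbol, 932 with several, 9211 not listed), and all 40 members matched RefSeq by gene ID.

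Tests between ages came from limma 3.58.1, run in R 4.3.3 (lmFit and eBayes, age as factor, 20 arrays), with p-values adjusted by Benjamini and Hochberg over 18194 genes and a threshold of 0.05. The methods of the study ranked genes by the relative difference of SAM, whose q-value rests on regrouped samples and was not run. Two-sided exact permutation tests ran over all labelings of 5 against 5 mice. Those of members were not adjusted and covered only the members described, which were chosen by rules that used the same data. Steps were tested on simulated data. Arrays carry no counts, so precision is limited by their number, and differences are shrunken near background.

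Members and gene lists were chosen with earlier results of these data known. Every member is accounted for; the value of every array, or their range, at the ages compared was given for members called in the F test or between neighbouring ages, those with the lowest F test p until 12 were described, and those above the floor. Of the pathway lists, up to 12 called genes of lowest F test p were named. Promoters were RefSeq windows of GRCm38.p6; the build behind the probe sets was not given in the sources used here. Alternatives were median centring, cyclic loess, the mean of probe sets, each probe set alone, a filter at the 40th percentile, limma-trend, array weights, the spread of signal as a covariate, a replicate block, 2 ages alone, each array left out and other floors. Leaving out 4 arrays of extreme spread was chosen after seeing the data.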

Additional observations from a re-analysis of the deposited data

Results flagged for a closer look

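Single mice stood apart from the other 4 of their age in 13 of 160 combinations of member and age, where the gap to the nearest mouse exceeded 0.71 of the range of the group (the 95% critical value of Dixon for 5 values). Chance flags about 1 in 20 such groups. At 4 weeks the highest log2 signal stood apart for Fzd5 in replicate 5 (6.36, next 5.53) and Wif1 in replicate 4 (2.30, next 2.09), and the lowest stood apart for Fzd10 in replicate 5 (6.86, next 7.44) and Sfrp2 in replicate 3 (2.97, next 3.45). At 8 weeks the lowest log2 signal stood apart for Wnt10a in replicate 2 (5.05, next 5.50). At 12 weeks the highest log2 signal stood apart for Dkk2 in replicate 5 (3.21, next 2.88), and the lowest stood apart for Wnt2 in replicate 3 (4.63, next 5.05) and Wnt8b in replicate 4 (5.30, next 5.72). At 16 weeks the highest log2 signal stood apart for Lrp6 in replicate 1 (7.63, next 6.84), Wnt2 in replicate 4 (5.80, next 5.22), Wnt6 in replicate 2 (6.06, next 4.94) and Wnt8a in replicate 2 (4.27, next 3.47), and the lowest stood apart for Wnt5a in replicate 1 (4.84, next 5.38).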

How the results depend on the processing

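Called members kept their direction in all fits listed here except those to their other probe sets, but their calls were often lost. The count of members from 4 to 8 weeks (3) was 5 after median centring, 1 with the mean of probe sets, and 0 with array weights, the spread of signal as a covariate, the replicate block, the 2 ages alone and without the 4 arrays of extreme spread (leaving out 1 array, 0 to 7). Between 4 and 16 weeks (1) it was 2 after median centring, cyclic loess or array weights, and 0 when probe sets were averaged, with the covariate, the replicate block or the 2 ages alone (0 to 4). Of the F test (0) it was 2 after cyclic loess or without the 4 arrays and 1 with array weights (0 to 4). From 12 to 16 weeks (0) it was 1 with array weights or without the 4 arrays (0 to 1), from 8 to 12 weeks 1 with the 2 ages alone, and between 4 and 12 weeks 1 with array weights or the covariate. Counts of pathway genes from 4 to 8 weeks (2) were 5 after median centring, 4 with limma-trend, and 0 with array weights, the covariate, the replicate block, the 2 ages alone or without the 4 arrays (0 to 10). Between 4 and 16 weeks (4) they were 2 with the mean of probe sets or the replicate block, 7 with array weights, 1 with the covariate, 0 with the 2 ages alone and 10 without the 4 arrays (0 to 17). In the F test (3) they were 1 after cyclic loess, 0 with the mean of probe sets, the covariate or the replicate block, and 9 with array weights or without the 4 arrays (0 to 11). From 12 to 16 weeks (0) they were 7 with array weights and 10 without the 4 arrays (0 to 7), from 8 to 12 weeks 1 with the 2 ages alone, and between 4 and 12 weeks 1 with array weights or the covariate. The cause was not tested. The other probe sets reversed the sign of Fzd1 (0.31 from 4 to 8 weeks, 0.22 from 4 to 16 weeks), Fzd10 (-0.28) and Lrp6 (0.0195), and the difference of Fzd4 from 4 to 16 weeks (-0.19, not called) was 0.20 after cyclic loess and 0.00192 with the mean of probe sets. At or below the floor lay 36 members by the 95th percentile of sensory receptor genes and 12 by their median. Equal replicate numbers did not pair the mice, since their deviations from the mean of an age correlated between -0.57 and 0.58 (mean -0.0438, against 0.0112 for other numbers at other ages).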
